A study of Rattus norvegicus with 12 samples.

Results

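This report describes 9 genes of T cell receptor signalling and T cell identity in rat whole blood: Cd247, Cd3g, Cd3d, Cd3e, Lck, Ubash3a, Cd5, Lef1 and Tcf7. They were chosen by symbol, and selected on their log2 differences between WKY and F344 in these same libraries, so their values in WKY against F344 are given as a description, without a test. Of the 9 symbols, 8 matched 1 of the 17337 gene rows. Tcf7 matched none and is not analysed here. A filter on low counts kept 7 of the 8, among 2781 genes in all, and left out Cd3d.

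Blood came from adult male rats of 2 strains, F344 (Fischer) and WKY (Wistar Kyoto), aged 70 to 90 days when first tested. Every rat, the unstressed ones included, went through contextual fear conditioning, in which an animal learns to fear a place, and then spent 4 weeks in its home cage. Rats of the chronic restraint stress (CRS) groups were then held in cone-shaped bags for 2 hours a day over 2 weeks, and rats of the no stress (NS) groups stayed undisturbed. All were conditioned again and killed by decapitation 24 hours after the last test. The 12 libraries formed 4 groups of 3: F344 NS, F344 CRS, WKY NS and WKY CRS. Whether the 3 libraries of a group are 3 animals is not stated in the labels. The p-values therefore reflect library-to-library spread, which may be technical.

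The T cell receptor has no enzyme of its own. Its antigen-binding chains sit in a complex with the CD3 gamma, delta and epsilon chains and the zeta chain (the products of Cd3g, Cd3d, Cd3e and Cd247), whose tails carry tyrosines. The kinase Lck phosphorylates these tyrosines, which dock the kinase Zap70 and start the signal, while Ubash3a and the receptor Cd5 dampen it. Lef1 and Tcf7 are related transcription factors of naive T cells. In blood these genes mark mainly T lymphocytes, although natural killer (NK) cells also use the zeta chain and Lck, and a subset of B cells carries Cd5. In bulk blood, fewer T cells and less RNA per T cell cannot be told apart.

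The bases before the transcription start are shown for 5 of these genes, which lie on separate chromosomes. Shared letters among them therefore do not come from shared neighbourhood. Cd5 on chromosome 1 and Tcf7 on chromosome 10 also lie apart from these 5 and are not shown. Cd3g, Cd3d and Cd3e are neighbours on rat chromosome 8. All windows hold 250 bases and come from RefSeq's GRCr8 assembly, matched by symbol for 9 of 9 genes. Capitals mark matches to motifs searched on both strands: AGGAAG for ETS factors, TGTGGT for RUNX factors, CTTTGA for TCF/LEF factors, CAGGTG for E proteins and AGATAA for GATA factors. No match overlapped another. Lck has 2 windows because it has 2 annotated starts, and the counts do not separate them.
Cd247 (chr13:80576019-80576268, plus strand): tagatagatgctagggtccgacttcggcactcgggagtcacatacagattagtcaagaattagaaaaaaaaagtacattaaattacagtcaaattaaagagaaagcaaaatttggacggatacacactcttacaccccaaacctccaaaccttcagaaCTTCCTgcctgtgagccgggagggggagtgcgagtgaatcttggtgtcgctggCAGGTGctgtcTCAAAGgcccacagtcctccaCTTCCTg
Cd3g (chr8:54183919-54184168, minus strand): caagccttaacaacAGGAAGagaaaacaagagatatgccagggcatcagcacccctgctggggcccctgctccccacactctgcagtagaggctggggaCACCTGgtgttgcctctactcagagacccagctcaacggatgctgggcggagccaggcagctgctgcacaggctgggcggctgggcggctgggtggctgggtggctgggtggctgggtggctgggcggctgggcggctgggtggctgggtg
Ubash3a (chr20:9293440-9293689, plus strand): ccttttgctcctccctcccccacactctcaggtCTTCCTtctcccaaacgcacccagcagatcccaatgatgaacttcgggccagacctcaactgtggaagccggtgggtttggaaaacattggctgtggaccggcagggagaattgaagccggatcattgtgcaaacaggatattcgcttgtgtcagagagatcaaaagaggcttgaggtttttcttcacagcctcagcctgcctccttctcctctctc
Lef1 (chr2:222340463-222340712, plus strand): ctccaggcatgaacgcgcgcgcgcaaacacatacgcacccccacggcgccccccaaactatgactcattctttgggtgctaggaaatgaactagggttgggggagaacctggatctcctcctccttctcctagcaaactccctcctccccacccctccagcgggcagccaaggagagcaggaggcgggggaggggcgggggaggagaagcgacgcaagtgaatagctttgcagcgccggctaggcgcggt
Lck, first start (chr5:147201268-147201517, minus strand): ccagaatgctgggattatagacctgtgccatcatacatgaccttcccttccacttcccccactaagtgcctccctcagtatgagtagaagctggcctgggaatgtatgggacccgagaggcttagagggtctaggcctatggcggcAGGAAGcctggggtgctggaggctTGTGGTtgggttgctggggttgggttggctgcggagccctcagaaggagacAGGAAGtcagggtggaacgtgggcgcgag
Lck, second start (chr5:147183651-147183900, minus strand): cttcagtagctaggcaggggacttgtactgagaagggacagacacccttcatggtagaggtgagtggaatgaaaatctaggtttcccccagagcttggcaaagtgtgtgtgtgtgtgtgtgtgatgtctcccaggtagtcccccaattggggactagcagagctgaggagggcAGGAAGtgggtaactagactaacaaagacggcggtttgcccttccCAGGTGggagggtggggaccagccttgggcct
The ETS motif was in 9 of the 10 windows of the 9 genes and in 29.5% of 33469 windows of all genes. The Lef1 window was the 1 without it and held none of the 5 motifs. The E protein motif was in 4 of 10 windows (15.9% of all), the TCF/LEF motif in 2 (13.9%), the RUNX motif in 1 (14.5%) and the GATA motif in 0 (10.3%). The motif letters were chosen with these sequences in view, so the shares are a description and test nothing. The 10 windows also include 2 of Lck and those of the neighbours Cd3g, Cd3d and Cd3e. These are letter matches, with no measurement of binding.

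Levels were low. Genes received 1691956 to 3846263 counts per library, of which 88.9% to 94.6% went to 3 features, leaving 90796 to 419789 for all others. The levels below are CPM, a count's share of its library's total after TMM, which estimates each library's effective total from most genes. A single count was worth from 0.201 to 1.1 CPM, and F344 NS replicate 3 was the shallowest library. The 7 tested genes had 1 to 56 counts in a library, and their group means ran from 0.893 to 12.0 CPM. In 12 of the 28 combinations of gene and group the SD between replicates was below what counting alone would give, and the median ratio of the 2 was 1.06. Transcript lengths were not used here, so levels are compared between groups and not between genes. None of the 8 genes overlapped another gene with a row in these tables in the GRCr8 annotation.

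**Figure D1:**
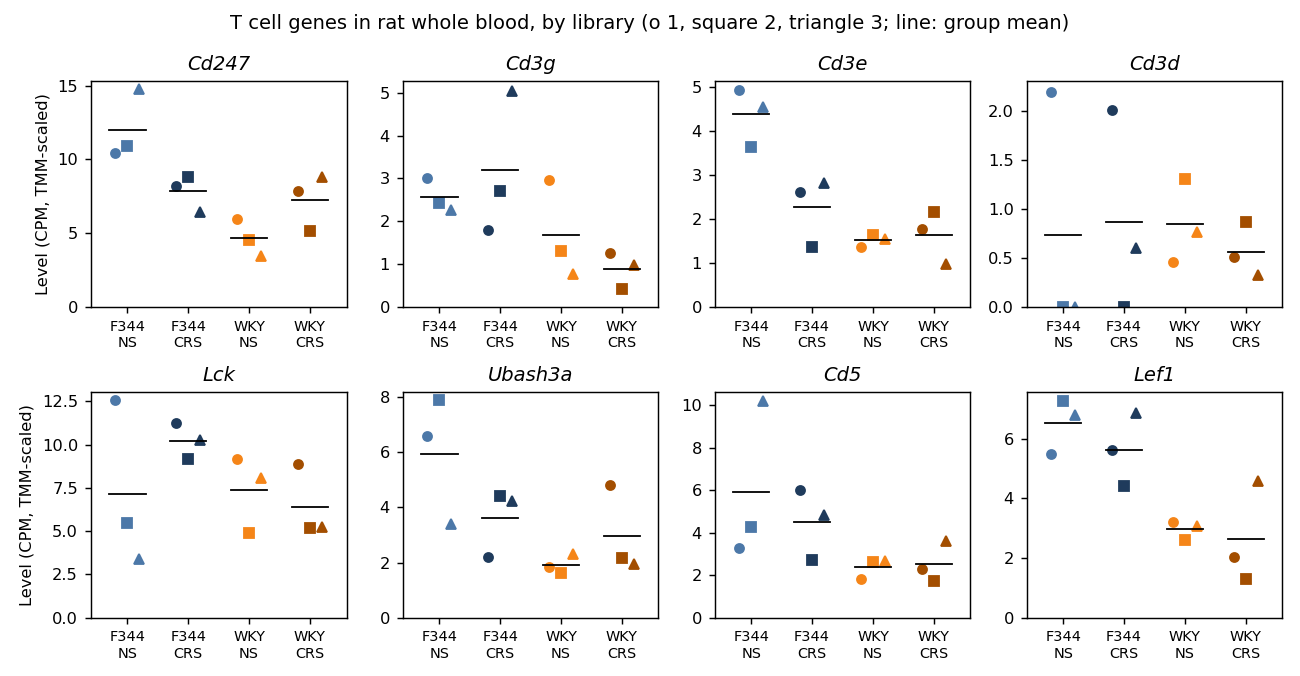
Level of each of the 8 T cell genes (y axis, TMM-scaled CPM) in 12 libraries of 4 groups (x axis). Points are libraries, shaped by replicate number, and lines are group means. Cd247, Cd3e and Lef1 stood lower in all 3 WKY NS libraries than in any F344 NS library, and Lck ranged from 3.40 to 12.6 CPM within F344 NS.

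Among the receptor chains, Cd247 and Cd3e stood lower in WKY than in F344 without stress. The Cd247 level was 10.4, 10.9 and 14.8 CPM in F344 NS and 5.95, 4.56 and 3.46 CPM in WKY NS. After restraint it was 8.22, 8.82 and 6.45 CPM in F344 and 7.86, 5.18 and 8.81 CPM in WKY. Thus the NS groups did not overlap, whereas the CRS groups did. The WKY minus F344 difference was log2 -1.28 (SE 0.365) without stress and log2 -0.07 (SE 0.334) after restraint, the latter log2 0.10 without WKY CRS replicate 2. Cd3e, which every surface CD3 complex contains, had a similar course, at 4.93, 3.64 and 4.54 CPM in F344 NS against 1.37, 1.63 and 1.54 CPM in WKY NS. After restraint it stood at 2.61, 1.36 and 2.82 CPM in F344 and 1.77, 2.16 and 0.979 CPM in WKY. Its difference was log2 -1.54 (SE 0.576) without stress and log2 -0.52 (SE 0.562) after restraint, and here too only the NS groups lay apart.

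Cd3g, the gamma chain, showed the other order. Without stress its level was 3.01, 2.43 and 2.27 CPM in F344 and 2.97, 1.30 and 0.769 CPM in WKY, so the groups overlapped through WKY NS replicate 1. After restraint it was 1.80, 2.71 and 5.04 CPM in F344 and 1.27, 0.431 and 0.979 CPM in WKY, with no overlap. These WKY CRS values rest on 9 counts over the group. The difference was log2 -0.56 (SE 0.659) without stress and log2 -1.72 (SE 0.652) after restraint. Leaving out WKY NS replicate 1 changed the first to log2 -1.32, and leaving out F344 CRS replicate 3 changed the second to log2 -1.19.

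Cd3d, the delta chain, did not pass the filter on low counts and received no test. It had 8, 0 and 0 counts in F344 NS, 10, 0 and 3 in F344 CRS, 2, 4 and 2 in WKY NS, and 2, 2 and 1 in WKY CRS. A count of 0 allows up to 3 counts, or 1.82 and 3.40 CPM in F344 NS replicates 2 and 3 and 1.02 CPM in F344 CRS replicate 2. Replicate 1 of F344 NS stood at 2.19 CPM and replicate 1 of F344 CRS at 2.01 CPM. The SD in those groups was 2.83 and 2.46 times the counting SD. That counting SD uses each library's own count, so libraries with 0 counts added nothing to it, and nothing is read from these 2 ratios. Pooled over libraries, the ratio of WKY to F344 was 0.615 without stress (95% counting interval 0.201 to 1.88) and 0.532 after restraint (0.148 to 1.59). Both intervals include equal levels and cover counting error only.

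The kinase Lck differed least between strains without stress. It was at 12.6, 5.46 and 3.40 CPM in F344 NS and 9.15, 4.88 and 8.07 CPM in WKY NS. F344 NS therefore held both the highest and the lowest Lck level of all 12 libraries, and its SD was 2.56 times the counting SD. After restraint the level was 11.2, 9.16 and 10.3 CPM in F344 and 8.87, 5.18 and 5.22 CPM in WKY, which did not overlap. The difference was log2 -0.16 (SE 0.390) without stress and log2 -0.64 (SE 0.363) after restraint. The first value turned to log2 0.67 without F344 NS replicate 1 and became log2 -0.74 without F344 NS replicates 2 and 3.

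Of the inhibitory genes, Ubash3a had the widest strain difference without stress. Its level was 6.58, 7.89 and 3.40 CPM in F344 NS and 1.83, 1.63 and 2.31 CPM in WKY NS, with no overlap. The lowest F344 NS value came from 3 counts in the shallowest library. After restraint it was 2.21, 4.41 and 4.23 CPM in F344 and 4.82, 2.16 and 1.96 CPM in WKY, and the groups overlapped. The difference was log2 -1.71 (SE 0.490) without stress and log2 -0.19 (SE 0.448) after restraint, the latter log2 -0.78 without WKY CRS replicate 1 and log2 0.05 without WKY CRS replicate 3. Cd5, the inhibitory surface receptor, stood at 3.29, 4.25 and 10.2 CPM in F344 NS against 1.83, 2.60 and 2.69 CPM in WKY NS. The highest of these came from 9 counts in the shallowest library. After restraint Cd5 was at 6.02, 2.71 and 4.84 CPM in F344 and 2.28, 1.72 and 3.59 CPM in WKY. Its difference was log2 -1.09 (SE 0.512) and log2 -0.85 (SE 0.454), and only the NS groups did not overlap. Without F344 NS replicates 2 and 3, the first shrank to log2 -0.48.

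Lef1, the naive T cell transcription factor, held the most even strain difference across treatments. It was at 5.48, 7.28 and 6.81 CPM in F344 NS and 3.20, 2.60 and 3.07 CPM in WKY NS. After restraint it was at 5.62, 4.41 and 6.85 CPM in F344 and 2.03, 1.29 and 4.57 CPM in WKY. The CRS groups overlapped only through WKY replicate 3, which exceeded F344 replicate 2. The difference was log2 -1.08 in both treatments (SE 0.442 without stress, 0.415 after restraint), and without WKY CRS replicate 3 the latter was log2 -1.70.

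In all, 5 of the 7 tested genes were lower in every WKY NS library than in every F344 NS library, against 6.33% of the 2781 genes. After restraint this held for 2 of 7, Cd3g and Lck, against 10% of genes. No gene was in both counts. Both counts were made on CPM. As shares of counts outside the 3 most abundant features, without TMM, Ubash3a and Cd5 overlapped between the NS groups. On that scale Lck overlapped between the CRS groups. All 7 log2 differences were negative in each treatment, against 50.7% and 49.8% of genes. Because the genes were chosen with these differences known, neither count supports a strain effect.

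The genes had not been picked on restraint against no stress, although within a strain that contrast shares libraries with the strain comparisons. Estimates, counts and p-values within a strain are therefore not independent of that choice, unlike the shares of all genes beside them. Averaged over strains, none of the 7 was called, and 3 had estimates above 0 against 50.3% of genes. The estimates were log2 0.03 for Cd247 (95% interval -0.46 to 0.52), 0.07 for Lck (-0.48 to 0.61), 0.02 for Cd5 (-0.64 to 0.68), -0.06 for Ubash3a (-0.78 to 0.65) and -0.15 for Lef1 (-0.77 to 0.47). They were -0.32 for Cd3g (-1.26 to 0.62) and -0.40 for Cd3e (-1.24 to 0.43). By edgeR's quasi-likelihood test 0 of 7 passed with Benjamini-Hochberg adjustment over 2781 genes (adjusted p from 0.943 to 0.992), beside 0.036% of all genes. DESeq2 also called 0 of 7. With either tool, 0 of 7 were under 0.05 before adjustment, against 7.01% of genes by edgeR. The intervals leave room for changes in either direction, so these libraries do not show that restraint leaves T cell transcripts as they were.

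Within F344, Cd247 and Cd3e had lower CPM in all 3 CRS libraries than in all 3 NS libraries. This held for 2 of 7, against 5.68% of genes, and depended on the scaling. As shares of counts outside the 3 most abundant features, without TMM, the groups overlapped for both genes. For Cd247, F344 NS replicate 2 was then below F344 CRS replicates 1 and 2. For Cd3e, F344 NS replicate 2 was below F344 CRS replicates 1 and 3. Neither gene passed. Cd247 had log2 -0.57 (95% interval -1.27 to 0.12, edgeR adjusted p = 0.941) and Cd3e log2 -0.91 (-1.98 to 0.16, edgeR adjusted p = 0.94). Ubash3a had the smallest p of the 7, at log2 -0.83 (-1.72 to 0.06, edgeR adjusted p = 0.918). Lef1 (log2 -0.15), Cd5 (-0.10), Cd3g (0.26) and Lck (0.31) lay closer to 0, and Lck reached log2 1.13 without F344 NS replicate 1. In F344 both edgeR and DESeq2 called 0 of 7, and edgeR called 0% of all genes. Before adjustment 0 of 7 were under 0.05 with either tool, against 4.71% of genes by edgeR.

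Within WKY, 0 of 7 genes had groups that did not overlap, against 4.89% of genes higher and 5.11% lower after restraint. Cd247 and Ubash3a had positive estimates, log2 0.63 (95% interval -0.10 to 1.35, edgeR adjusted p = 0.958) and log2 0.70 (-0.32 to 1.72). Without WKY CRS replicate 1 the Ubash3a estimate was log2 0.11. Cd3g had the most negative estimate, log2 -0.90 (-2.34 to 0.54), which was log2 -0.14 without WKY NS replicate 1. Cd3e (log2 0.10), Cd5 (0.14), Lck (-0.18) and Lef1 (-0.15) lay nearer 0. Again both tools called 0 of 7, beside 0% of all genes by edgeR, and 0 of 7 were under 0.05 before adjustment (5.79% of genes by edgeR). The difference between strains in the restraint response combines both strain comparisons, so no test of it is given for single members. Its estimates were largest for Ubash3a (log2 1.53, SE 0.668), Cd247 (log2 1.2, SE 0.495) and Cd3g (log2 -1.16, SE 0.933), and 0% of all genes were called.

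**Figure D2:**
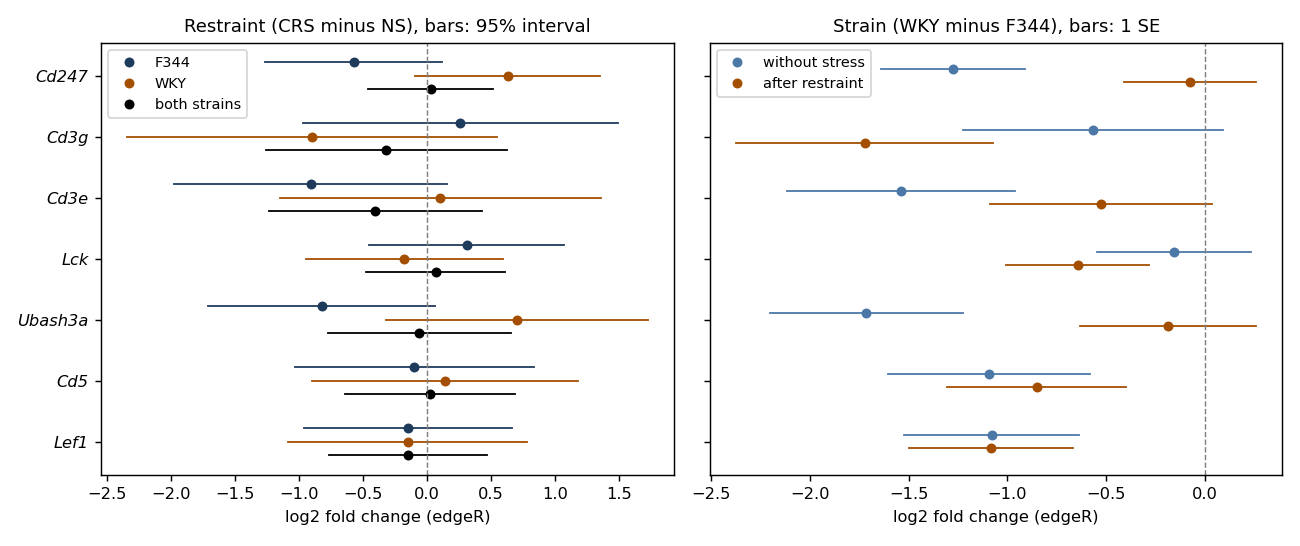
log2 fold changes (x axis, edgeR) of the 7 tested T cell genes. Left, restraint against no stress in each strain and averaged, with 95% intervals, all of which include 0. Right, WKY against F344 without stress and after restraint, with bars of 1 SE and no test. Cd247 and Ubash3a lay near 0 after restraint, at log2 -0.07 and -0.19.

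Summed over the 8 genes, the level was 48.5, 41.9 and 45.4 CPM in F344 NS and 39.7, 33.6 and 41.1 CPM in F344 CRS. It was 26.8, 20.5 and 22.7 CPM in WKY NS and 29.4, 19.0 and 26.4 CPM in WKY CRS. All 6 F344 libraries were above all 6 WKY libraries on this scale. On another scale, as counts per 100000 outside the 3 most abundant features and without TMM, the sums were 80.3, 35.3 and 44.1 in F344 NS and 33.6, 28.4 and 34.6 in WKY NS. The NS groups were then nearly touching, at 35.3 against 34.6. After restraint they were 57.4, 35.1 and 48.6 in F344 and 36.4, 18.9 and 27.7 in WKY, which overlapped. TMM factors ranged from 0.521 to 1.53, and those of F344 NS replicates 2 and 3 were the lowest (0.625 and 0.521).

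A ratio of counts within a library needs no scaling. The summed counts of the 8 genes, divided by those of 15 B cell markers, were 1.04, 1.17 and 1.43 in F344 NS and 0.654, 0.426 and 0.541 in WKY NS. After restraint they were 0.995, 0.884 and 1.05 in F344 and 0.682, 0.500 and 0.786 in WKY. Against 20 NK and cytotoxic cell markers the ratios ran from 1.54 to 2.67 in F344 NS, 1.24 to 1.89 in F344 CRS, 0.665 to 1.02 in WKY NS and 0.596 to 0.734 in WKY CRS. Only 5 of these 20 markers passed the filter on low counts. Averaged over treatments, 4 of the 5 were higher and 1 lower in WKY, where 51% of all genes were lower. Tyrobp, which monocytes share, was at log2 1.27 (SE 0.343), so this denominator may itself differ between strains. On the B cell and NK ratios every F344 library was above every WKY library. This also held against other T cell genes. Against 32 identity and coreceptor genes the ratios ran from 0.239 to 0.277 in F344 NS and 0.112 to 0.172 in WKY NS. After restraint they ran from 0.193 to 0.231 in F344 and 0.120 to 0.161 in WKY. Against 30 receptor signalling genes they ran from 0.190 to 0.207 in F344 NS and 0.0929 to 0.1345 in WKY NS. After restraint these were 0.147 to 0.172 in F344 and 0.104 to 0.134 in WKY. The numerator is the set that was chosen for its strain difference, so this describes the libraries and tests nothing.

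**Figure D3:**
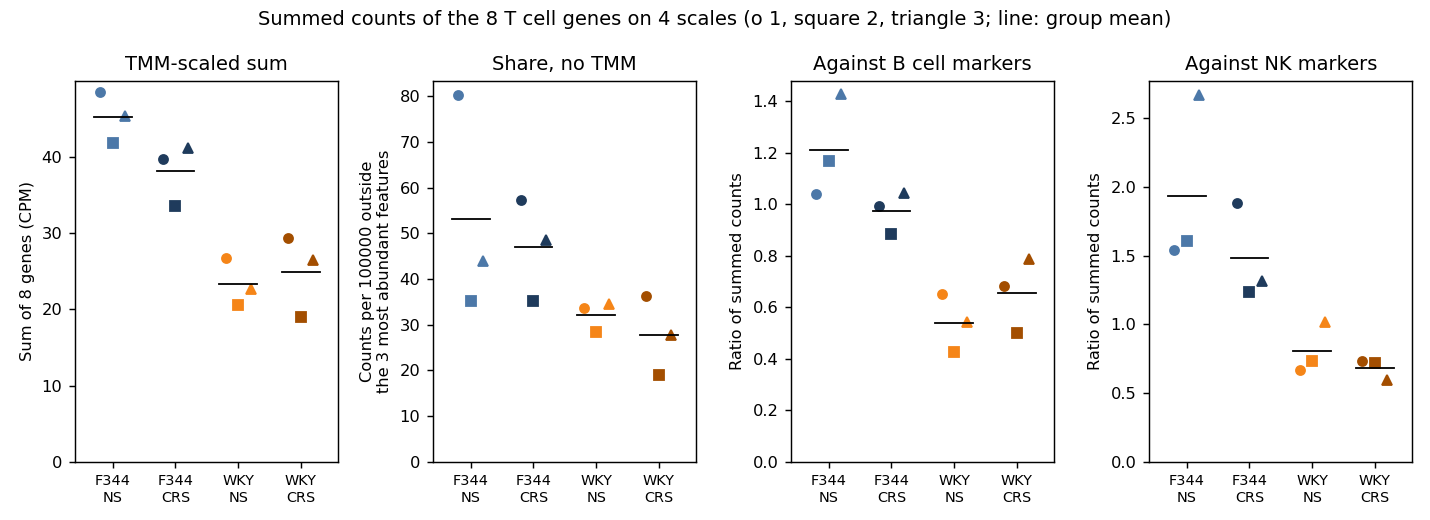
Sum of the 8 T cell genes in each library on 4 scales (y axes): TMM-scaled CPM, counts per 100000 outside the 3 most abundant features, and ratios to summed B cell and NK marker counts. Points are libraries, shaped by replicate number, and lines are group means. On the second scale the F344 and WKY groups came close without stress and overlapped after restraint.

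The 7 genes were chosen for their strain difference and the other genes of the pathway were not, so the medians of these sets are given side by side with nothing read from the gap. Of 35 further receptor signalling genes listed, 25 were tested. Averaged over treatments, 18 were lower and 7 higher in WKY, where 51% of all genes were lower, with a median of log2 -0.17, beside -0.97 for the 7 members and -0.01 for all genes. The lowest were Plcg1, the phospholipase that Zap70 signalling activates (log2 -0.62, SE 0.257), and the kinase Prkcq (log2 -0.61, SE 0.275). The highest were the kinase Fyn (log2 0.52, SE 0.293) and the adaptor Pag1 (log2 0.51, SE 0.499). Zap70 itself was at log2 -0.30 (SE 0.309).

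Of 32 identity and coreceptor genes, 17 were tested, 12 lower and 5 higher in WKY, with a median of log2 -0.20. Bcl11b, a transcription factor of T cell commitment, was lowest (log2 -0.85, SE 0.326), followed by Tcf12 (log2 -0.79, SE 0.319). Tbx21, the T-bet gene (log2 0.82, SE 0.507), and Cd4 (log2 0.47, SE 0.276) were highest. Rat monocytes also carry Cd4. Il7r, the interleukin 7 receptor gene of naive T cells, had 0 counts in all 12 libraries, although it has a row. Among the 25 and the 17 genes, 0 passed edgeR's threshold in WKY against F344 averaged over treatments, beside 3.74% of all genes. The 32 identity genes summed to a mean of 176.2 CPM in F344 NS and 175.1 CPM in WKY NS. After restraint the means were 181.2 CPM in F344 and 168.5 CPM in WKY. For the 30 signalling genes with a row they were 229.7 and 215.3 CPM without stress, and 234.2 and 205.6 CPM after restraint.

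Under restraint averaged over strains, 0 of the 25 signalling genes and 0 of the 17 identity genes were called, beside 0.036% of all genes. The signalling genes divided into 14 higher and 11 lower (median log2 0.01), and the identity genes into 9 higher and 8 lower (median log2 0.03). The smallest p-values belonged to Ubash3b, the sister gene of Ubash3a (log2 0.49, SE 0.387), and the transcription factor gene Nfatc2 (log2 0.51, SE 0.406) among estimates above 0. Below 0 they belonged to the kinase Txk (log2 -0.52, SE 0.457) and the transcription factor gene Nfatc3 (log2 -0.32, SE 0.284). Among identity genes S1pr1, the receptor that lets T cells leave lymph nodes, had log2 -0.43 (SE 0.249), Tcf12 log2 -0.39 (SE 0.32) and the surface receptor Cd6 log2 0.19 (SE 0.271). None passed (edgeR adjusted p from 0.822 to 0.965 for these 7).

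Markers of some other blood cells also stood at different levels in the strains. Summed monocyte markers, 11 genes, ran from 70.4 to 93.1 CPM over F344 libraries and from 127 to 175 CPM over WKY libraries. Platelet markers, 9 genes, ran from 35.2 to 56.2 CPM in F344 NS, 68.1 to 79.0 CPM in F344 CRS, 43.8 to 98.3 CPM in WKY NS and 84.7 to 138 CPM in WKY CRS, with Gp1bb at 0 throughout. Under restraint averaged over strains, 6 of their 6 tested genes had estimates above 0 (median log2 0.56), against 50.3% of all genes. Of these 6, 0 were called, beside 0.036% of all genes. B cell markers, 15 genes, ran from 31.8 to 46.6 CPM in F344 and 33.6 to 48.2 CPM in WKY. NK and cytotoxic markers, 20 genes, ran from 17.0 to 31.5 CPM in F344 and 22.3 to 44.4 CPM in WKY, with Klrb1b at 0 throughout. Within that list Tyrobp, an adaptor shared by NK cells and monocytes, was at log2 1.27 (SE 0.343) in WKY against F344, Fcer1g at log2 0.23 (SE 0.388) and Cd226, the 1 tested gene of the list below 0, at log2 -0.03 (SE 0.331). Under restraint averaged over strains 0 of 5 tested genes of that list were called, beside 0.036% of all genes. Tyrobp was at log2 0.54, Cd226 at 0.48, the perforin gene Prf1 at -0.34 and Klrk1 at -0.02 (edgeR adjusted p from 0.869 to 0.992). Neutrophil markers, 12 genes, ran from 30.6 to 52.9 CPM in F344 and 46.6 to 66.6 CPM in WKY, and 10 red cell precursor genes from 670 to 1507 and 812 to 1190 CPM. The part of these cell types in the T cell values was not tested.

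**Figure D4:**
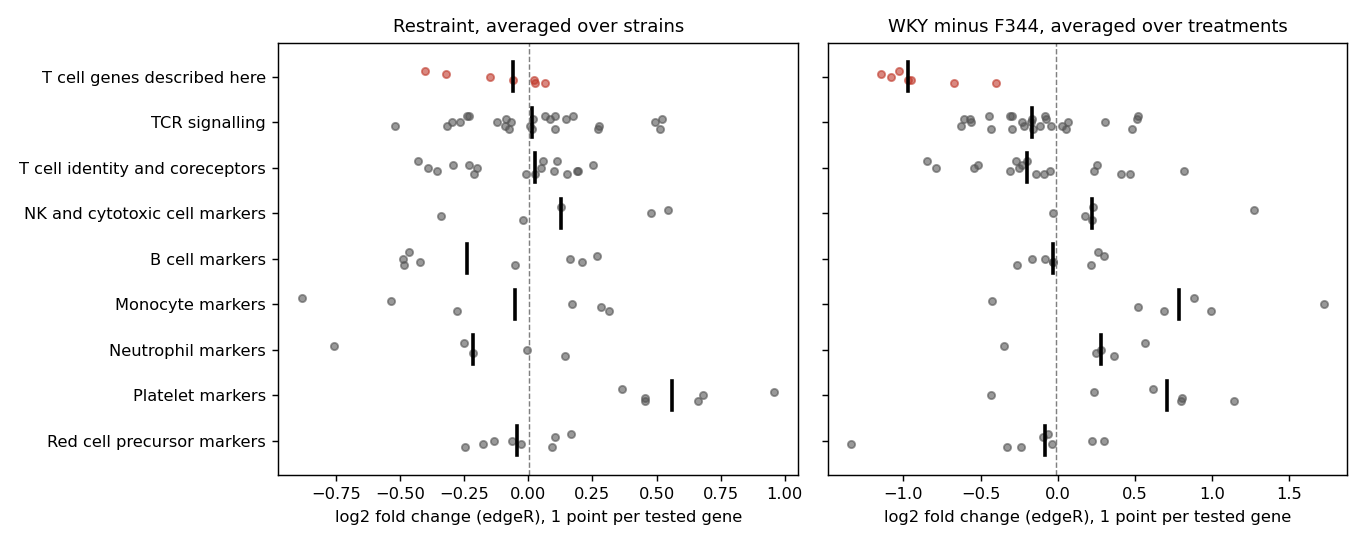
log2 fold changes (x axis, edgeR) of tested genes in 9 lists (rows), for restraint averaged over strains (left) and WKY against F344 averaged over treatments (right). Points are genes, thick lines list medians and the dashed line the median of all genes. On the right, the T cell genes described here, which were selected on that difference, have a median of -0.97. The further signalling and identity genes have medians of -0.17 and -0.20.

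Over 12 libraries, 19 of the 21 pairs among the 7 genes had a positive Pearson's r of log2 CPM (median 0.475), a direction favoured by selecting genes lower in WKY. With group means removed, 10 of 21 were positive (median -0.074). The residual r ran from -0.62 for Ubash3a with Cd5 to 0.55 for Lef1 with Cd5. These are correlations of sparse counts in libraries that share depth and scaling, and are given as a description. Against the average profile of the other 6, Lck had the lowest r (0.0822) and Lef1 the highest (0.801). Among 1079 other genes of at least 5 CPM, the nearest to the average profile of all 7 were Pde2a, a cyclic nucleotide phosphodiesterase (r = 0.867), Park2 (0.849), Plekhb1 (0.846), Btg2 (0.829) and Aamp (0.828). With group means removed, r was 0.746 for Pde2a, 0.460 for Btg2 and 0.358 for Aamp, but -0.16 for Park2 and -0.27 for Plekhb1. The profile averages genes selected on their strain difference, so the ranking favours genes lower in WKY. Whether these 5 genes vary with T cells was not tested.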

How the data were processed

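The authors deposited raw read counts per gene, 1 file per library. Build rn6, TopHat2 2.1.0, cutadapt 1.14 and Cufflinks 2.2.1 appear in the submitters' processing notes without a role. How reads were counted, on which annotation and strand, is not given in the sources used here. In each file 5 rows that name no gene held 80.9% to 86.6% of counts (ambiguous reads alone 78.3% to 83.6%) and stayed out of library sizes and tests. Reads that fit several genes would be missing from the counts.

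The main test was edgeR 4.0.16 (R 4.3.3, quasi-likelihood, TMM, filterByExpr with a minimum count of 10, 12 libraries in 1 fit of 4 group means). P-values were adjusted by Benjamini-Hochberg over 2781 genes, and 0.05 was the limit for a call. Each SE was derived from a log2 estimate and its F statistic. DESeq2 1.42.0 was an alternative. The test was also run on counts simulated with its own fitted spread, for the restraint comparisons only. That run cannot show whether the fitted spread suits these libraries, and nothing is read from it here. No 2 libraries held identical counts.

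The genes, gene lists and motifs were chosen with earlier results of these data known, and the motif letters with the sequences in view. In the T cell and NK lists, genes were named by the smallest p under restraint and the largest strain difference, up to 2 per direction, and the other lists are given as sums, counts or medians. A gene of the identity list that this rule names is not reported here. Likeness was Pearson's r of log2 CPM (prior count 2) with the mean standardised profile of the 7 tested genes, the top 5 named. Zap70, Il7r, Gp1bb and Klrb1b were named after their values were seen. Replicate numbers recur across groups, and the labels do not say that they pair animals.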

Additional observations from a re-analysis of the deposited data

How the results depend on the processing

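The 7 tested genes were refitted under 19 alternatives. For restraint none passed edgeR's or DESeq2's threshold in any of them (lowest adjusted p 0.579 averaged over strains, 0.319 in F344 and 0.782 in WKY). In 28 of 133 values averaged over strains, 8 of 133 in F344 and 8 of 133 in WKY the estimate had the other sign, with the cause not tested. In WKY against F344, 130 of 133 values were negative in each treatment. Over all genes, 50.7% without stress and 49.8% after restraint were negative in the main fit. The 7 genes were chosen with this difference known and the refits share libraries, so the counts of 133 support no strain effect. The exceptions without stress were Lck without F344 NS replicate 1 (log2 0.67), without WKY NS replicate 2 (0.040) and with no filter (0.042), and after restraint Cd247 without WKY CRS replicate 2 (0.097) or F344 CRS replicate 2 (0.0085) and Ubash3a without WKY CRS replicate 3 (0.054). Without TMM and without the 3 most abundant features in the totals (an alternative added after seeing the data), the median of all genes was log2 0.21 for strain without stress, -0.16 for strain after restraint, -0.14 for restraint averaged over strains and -0.32 for restraint in WKY. Cd247 was then at log2 -0.089, Lck at -0.10 and Cd5 at -0.10 averaged over strains, and Cd3e at -0.21 and Cd5 at -0.19 in WKY. With no filter on low counts Ubash3a was at 0.11 and Lef1 at 0.039 averaged over strains, and Lef1 at 0.21 and Cd5 at 0.28 in F344, where the median of all genes was itself log2 0.18 averaged over strains and 0.36 in F344. Without F344 NS replicates 2 and 3, Lck was at -0.23 averaged over strains, and Lef1 at 0.069, Lck at -0.28 and Cd5 at 0.51 in F344. By DESeq2 Cd5 was at -0.011 averaged over strains.

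Leaving out 1 library at a time, log2 changes averaged over strains ran from -0.050 to 0.15 for Cd247, -0.36 to 0.077 for Ubash3a, -0.59 to 0.057 for Cd3g, -0.10 to 0.48 for Lck and -0.18 to 0.25 for Cd5. In F344 they ran from -0.28 to 0.56 for Cd3g and -0.51 to 0.35 for Cd5. In WKY they ran from -0.77 to 0.11 for Lef1, -0.086 to 0.36 for Cd3e, -0.51 to 0.034 for Lck and -0.17 to 0.31 for Cd5.

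Over all genes, the count called for restraint averaged over strains was 1. It was 3 by DESeq2, 6 with no filter, 4 without TMM, 0 without F344 NS replicates 2 and 3, and 0 to 3 leaving out 1 library. For restraint in F344 it was 0, with 5 under no filter and 0 to 5 leaving out 1 library. In WKY it was 0, with 8 under no filter, 2 without TMM and 0 to 2 leaving out 1 library. For WKY against F344 without stress it was 19, with 12 without TMM, 6 without F344 NS replicates 2 and 3, and 5 to 44 leaving out 1 library. After restraint it was 39, and 18 to 46 leaving out 1 library. For the difference in response it was 0, with 3 under no filter, 3 without TMM, 1 without F344 NS replicates 2 and 3, and 0 to 2 leaving out 1 library. With the replicate block the count averaged over strains was 2 and Cd5 was at log2 -0.035. The correlation of deviations between same-numbered libraries ran from -0.09 to 0.20, over 0.1 in 4 of 18 pairs (median 0.035), and between differently numbered libraries it was over 0.1 in 2 of 36 (median -0.015). Same-numbered pairs were thus over 0.1 more often, and these values cannot exclude that the numbers pair libraries. The main fit left the numbers out because the labels do not say that they pair animals.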
